A study of Mus musculus with 6 samples.

Results

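The genes of antigen presentation by MHC class I studied here were measured in RAW264.7, a macrophage-like line from a mouse tumour induced by Abelson leukaemia virus. They were the rows of the deposited expression table whose gene name is H2-K1, H2-D1, H2-T23, H2-M3, B2m, Tap1, Tap2, Tapbp, Nlrc5 or Erap1, 10 of 56748 genes in all. The rows were taken by name, but the members were chosen with earlier results of these data known. The study sequenced RNA from sorted cells that had been infected with a lentivirus carrying Fbxw11 beside a GFP marker (pMSCV-Fbxw11-pGk-GFP, 3 libraries) or a control vector (3 libraries named for GFP). The Fbxw11 protein picks substrates for an SCF-type ubiquitin ligase, and the title of the series asks about macrophage polarization. All 6 libraries came from the same parental line, what the control vector carries is not described further, and no stimulus is named in the labels. The labels do not state whether the 3 libraries per group stem from separate cultures, so p-values measure only how these libraries spread, which may be technical.

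MHC class I molecules show peptides from inside the cell to CD8 T cells and to natural killer cells. A heavy chain pairs with beta-2 microglobulin in the endoplasmic reticulum. The transporter made of Tap1 and Tap2 brings in peptides from the cytosol, aminopeptidases such as Erap1 trim them, and tapasin (Tapbp) holds the empty heavy chain at the transporter until a peptide binds. Nlrc5 is the transactivator of the class I genes, and interferons and NF-kB are textbook inducers of the pathway in macrophages.

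The promoters of 4 members are printed here because the stretch before the gene start is where class I genes are known to be controlled. Promoter windows of 300 bases, from 250 before to 50 after the gene start, were matched by symbol in RefSeq (GRCm38.p6) for 8 of the 10 members, and the first of 2 entries was used for H2-K1. Capitals mark each match, on either strand, to 1 of 5 motifs: the interferon-stimulated response element (GAAA, any 2 bases, GAAA), a kappa B form of class I genes (GGGGA followed by TTCCC), another kappa B form (GGGA, any base, TTTCC), the half-site TGACG of a cyclic AMP response element, and the NF-Y box CCAAT. The sequences are those of the reference strain C57BL/6, 5′ to 3′ along the gene.
H2-K1 promoter (chr17:34000298-34000597, minus strand): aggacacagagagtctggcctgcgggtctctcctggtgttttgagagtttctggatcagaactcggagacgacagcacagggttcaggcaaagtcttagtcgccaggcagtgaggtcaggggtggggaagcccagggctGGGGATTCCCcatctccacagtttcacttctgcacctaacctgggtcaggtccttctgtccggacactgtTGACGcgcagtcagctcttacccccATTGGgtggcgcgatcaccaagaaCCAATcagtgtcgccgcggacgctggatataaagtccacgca
H2-D1 promoter (chr17:35262844-35263143, plus strand): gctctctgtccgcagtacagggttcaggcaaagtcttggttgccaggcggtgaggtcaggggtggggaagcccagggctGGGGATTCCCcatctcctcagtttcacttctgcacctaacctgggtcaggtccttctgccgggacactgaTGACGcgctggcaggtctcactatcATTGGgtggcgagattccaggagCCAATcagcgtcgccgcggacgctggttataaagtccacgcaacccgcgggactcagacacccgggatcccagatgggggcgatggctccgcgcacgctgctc
H2-M3 promoter (chr17:37269984-37270283, plus strand): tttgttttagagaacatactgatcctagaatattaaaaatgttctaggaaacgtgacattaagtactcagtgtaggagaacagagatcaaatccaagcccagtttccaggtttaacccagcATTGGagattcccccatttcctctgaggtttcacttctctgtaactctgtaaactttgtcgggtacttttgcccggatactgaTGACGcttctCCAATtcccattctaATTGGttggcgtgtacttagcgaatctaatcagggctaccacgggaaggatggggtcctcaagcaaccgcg
B2m promoter (chr2:122147437-122147736, plus strand): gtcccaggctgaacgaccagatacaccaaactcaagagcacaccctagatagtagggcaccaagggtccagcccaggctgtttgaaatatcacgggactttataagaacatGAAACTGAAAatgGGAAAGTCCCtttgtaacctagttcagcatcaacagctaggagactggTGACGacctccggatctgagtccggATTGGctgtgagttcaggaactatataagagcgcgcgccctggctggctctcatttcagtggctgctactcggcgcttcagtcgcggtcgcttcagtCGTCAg

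The class I form of kappa B stood 111 bases before the start of the H2-K1 entry used and 171 before that of H2-D1, the 2 classical heavy chain genes. The shared letters tataaagtccacgca lie after the start in H2-K1 and before it in H2-D1. The 2 distances therefore count from different points of similar sequences. This kappa B form was in 2 of 8 members and in 0.107% of 32851 promoter windows of this length. The interferon-stimulated response element matched in B2m, H2-T23 and Erap1, 3 of 8 members, against 3.44% of all windows. Only this exact pattern was searched. The similar letters gtttcacttct in H2-K1, H2-D1 and H2-M3 do not match it and are unmarked, so a missing mark does not mean that such an element is absent. In B2m the matched element began 139 bases before the start, with the other kappa B form on the opposite strand 126 before. That form was in 1 of 8 members and 0.411% of windows. TGACG was in 5 of 8 members (20.8% of windows) and the NF-Y box in 7 of 8 (37.4%). In H2-K1, H2-D1, H2-M3 and B2m, TGACG was followed by an inverted NF-Y box with 25 bases from the first base of one to the first base of the other. This is the order of the X2 and Y boxes of the class I promoter, to which CREB and ATF factors and NF-Y are known to bind and where Nlrc5 acts. The 25-base spacing, chosen for the search after the member sequences were read, was in 16 of 27025 genes with a window (0.0592%). H2-K1, H2-D1 and H2-M3 are related copies, so they are not independent cases. A match is a description of letters, not evidence that a factor binds.

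**Figure D1:**
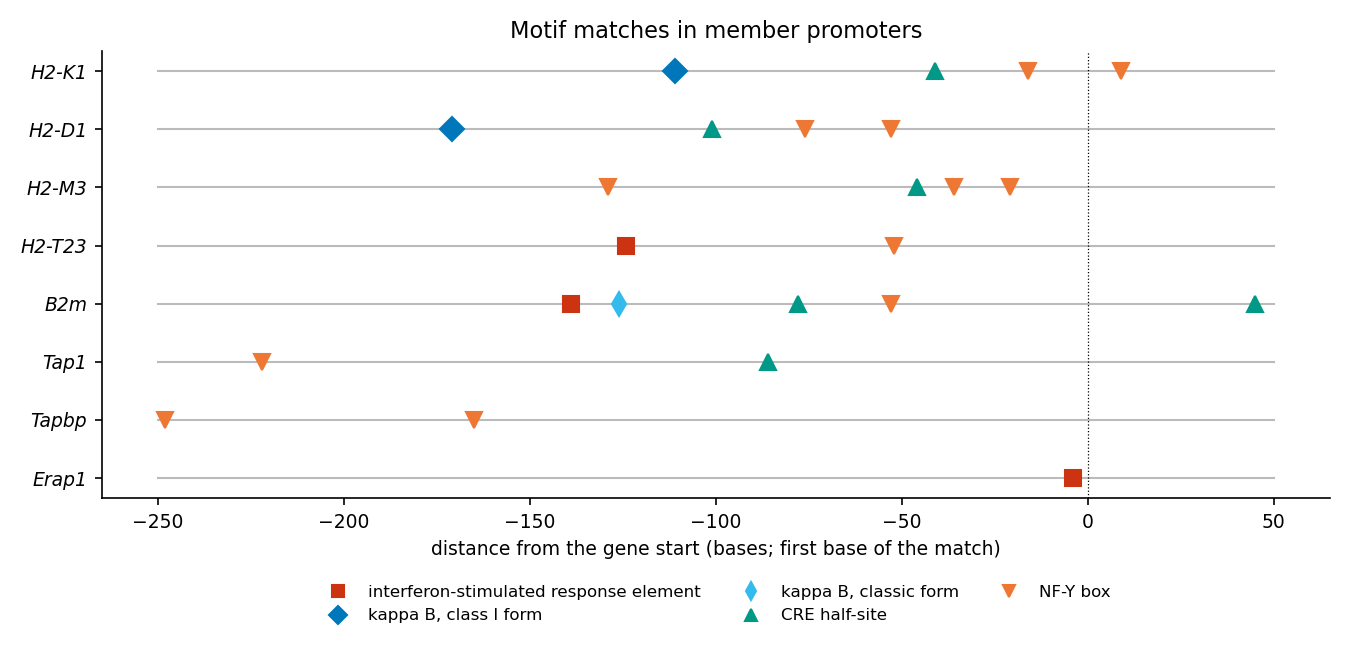
Position of motif matches (symbols, first base of each match) in the promoter windows of 8 members, in bases from the gene start of the entry used. A CRE half-site and an NF-Y box after it lie 25 bases apart in H2-K1, H2-D1, H2-M3 and B2m.

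Of the members 7 of 10 lie on chromosome 17, where the mouse MHC is. B2m lies on chromosome 2, Nlrc5 on chromosome 8 and Erap1 on chromosome 13. The submitters' processing notes name mm10, but the table's coordinates are not those of GENCODE M21 on GRCm38, the same build (0 of 10 members had the same position and 10 of 10 the same span). As the table gives them, H2-K1 spans 34214991 to 34219321 and H2-D1 35481706 to 35486475. Tap1 spans 34406527 to 34416199 and Tap2 34422501 to 34435295, beside the immunoproteasome genes Psmb9 and Psmb8.

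Recovered reads numbered 16191971 to 18951653 per library. Fbxw11 itself rose from 36.1 ± 0.409 to 271 ± 2.74 FPKM (SD, n = 3; limma adjusted p = 8.54e-08), in the direction of the labels. Reads of the vector and of the endogenous gene cannot be told apart. Of 10 macrophage markers 8 reached 1 FPKM in a library, against 0 of 6 fibroblast, 0 of 5 epithelial and 0 of 6 natural killer cell markers. T cell markers reached it in 1 of 8 (Lck). Dendritic cell markers reached it in 2 of 7 (Ccr7 and Itgax), with sums of 5.63 to 6.29 FPKM without and 6.76 to 7.37 FPKM with the Fbxw11 vector, and Itgax rose from 0.958 ± 0.138 to 1.74 ± 0.157 FPKM (limma adjusted p = 0.0198). B cell markers reached it in 6 of 6, with summed levels of 22.6 to 24.5 FPKM without and 25.2 to 26.9 FPKM with the Fbxw11 vector. Macrophage markers summed to 3204 to 3372 FPKM without and 3565 to 3694 FPKM with the Fbxw11 vector. Most of this was Lyz2 (2346 ± 70.9 and 2628 ± 39.2 FPKM). Of the 8 tested 4 rose (Adgre1, Lyz2, Itgam and Fcgr1), where 4.6% of all genes tested did. Csf1r was lower in each Fbxw11 library than in any control (154 ± 4.3 and 147 ± 2.4 FPKM), but did not pass (limma adjusted p = 0.290). The part of these marker levels in the results was not tested. The control and Fbxw11 libraries numbered 3 stood apart from the other 4 on the second principal component (23.7% of the variance). Values without both are given beside the results they touch most.

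None of the 10 members passed the test between the groups, against 9.24% of the 10898 genes tested. The test was limma on log2(FPKM + 1) over all genes whose mean reached 1 FPKM (fragments scaled by gene length and library size), with Benjamini-Hochberg adjustment and a threshold of 0.05. All 10 members reached that mean. None rose, against 4.6% of all genes, and none fell, against 4.64%. At an unadjusted p under 0.05 there were 3 (B2m, Tap1 and Erap1), against 24.6% of all genes, and limma's voom on recovered reads called 3 (B2m, H2-D1 and Erap1, each lower in the Fbxw11 libraries), against 14.3%. The median log2 fold change of the members was -0.02 beside 0.00 over all genes tested, and the median absolute value was 0.10 beside 0.09. The estimate was positive in 5 members and negative in 5.

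**Figure D2:**
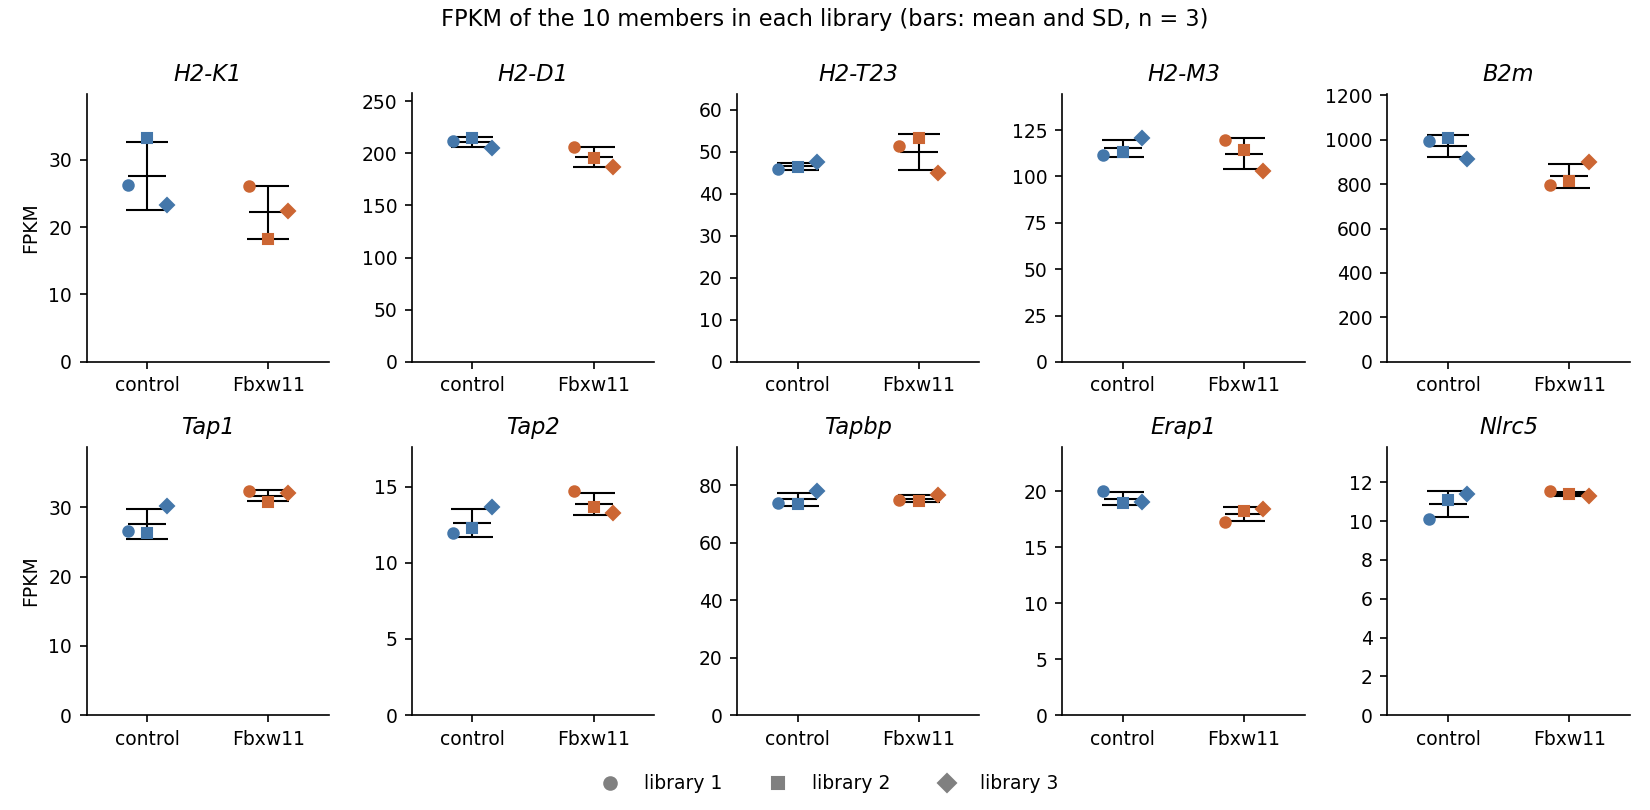
FPKM (vertical axis, from 0) of the 10 members in each of the 6 libraries, with mean and SD (n = 3). The groups do not overlap in B2m, Tap1 and Erap1, as in 31.1% of all genes tested, and H2-K1 varies most within each group.

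H2-D1, a classical heavy chain that shows peptides to CD8 T cells, was the most abundant of the 4 heavy chain members, at 212, 214 and 205 FPKM in control libraries 1 to 3 and 206, 196 and 187 FPKM in Fbxw11 libraries 1 to 3. The groups overlapped by a single library. The difference on the log2 scale was -0.10 (SE 0.044, 95% interval -0.21 to 0.00, limma adjusted p = 0.210). It passed with voom on recovered reads (-0.14, adjusted p = 0.0328) and after quantile normalization (-0.15, adjusted p = 0.0439, 8.28% of all genes called).

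H2-K1, the other classical heavy chain, stood at 26.3, 33.2 and 23.3 FPKM in control and 26.0, 18.2 and 22.4 FPKM in Fbxw11 libraries. The groups overlapped, and control library 2 and Fbxw11 library 2 were the highest and the lowest of the 6. Its spread within a group was 18.4% of the mean in control and 17.7% in Fbxw11 libraries, where counting error alone would give 2.81%. Its residual SD was larger than that of 93.2% of genes tested. The difference (-0.30, SE 0.16) therefore had a wide interval, from -0.69 to 0.09, with adjusted p = 0.310 by limma. Without both libraries numbered 3 it was -0.42 (adjusted p = 0.242). H2-D1 stood above H2-K1 in each library, by 6.47 to 10.8 times per length.

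H2-M3, which shows N-formylated peptides of bacterial and mitochondrial proteins, stood at 112, 113 and 121 FPKM in control and 119, 114 and 103 FPKM in Fbxw11 libraries. The groups overlapped, with Fbxw11 library 3 below the control range, and the limma estimate of -0.04 (95% interval -0.18 to 0.11) changed sign to 0.02 without Fbxw11 library 3. H2-T23 (Qa-1), a ligand of the inhibitory natural killer cell receptor CD94/NKG2A, stood at 46.0, 46.3 and 47.5 FPKM in control libraries. In Fbxw11 libraries it was 51.4, 53.2 and 45.1 FPKM, so that library 3 lay below the control range and the other two above it. The log2 fold change of H2-T23 was 0.09 (95% interval -0.06 to 0.24, limma adjusted p = 0.420). Without both libraries numbered 3 it was 0.18 (adjusted p = 0.0624).

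The order of the heavy chain levels, H2-D1, H2-M3, H2-T23 and H2-K1, was the same in each library. H2-D1 made up 52.7% ± 0.898 of their summed FPKM in control and 51.6% ± 0.633 in Fbxw11 libraries, and H2-M3 28.8% ± 1.41 and 29.5% ± 0.615 (SD, n = 3). The share of H2-T23 was 11.6, 11.4 and 12.0% in control and 12.7, 14.0 and 12.6% in Fbxw11 libraries, the only share of the 4 whose groups did not overlap. An exact permutation test, two-sided, gave p = 0.1 for it, the smallest that 3 against 3 allows. The share of H2-K1 was 6.88% ± 1.16 and 5.83% ± 0.931.

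These levels carry a limit from the reference. RAW264.7 comes from BALB/c mice, which carry the d haplotype of the MHC, while the reference genome is that of C57BL/6 with the b haplotype. How reads that differ from the reference or match several copies were treated was not given in the sources used here. In GENCODE M21 transcripts, 9.63% of the 50-base windows of H2-K1, 12.8% of those of H2-D1 and 14.5% of those of H2-T23 also occur in another gene, with H2-Q10, H2-Q1 and H2-T-ps in first place. For H2-M3 it was 0.576%, and for B2m 0 of 811 windows. Such windows were counted in the C57BL/6 reference only. The separate levels of H2-K1, H2-D1 and H2-T23 are therefore uncertain, and a low H2-K1 beside H2-D1 cannot be read as a low amount of that heavy chain.

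B2m, the light chain of every class I molecule and of some class I-like molecules, was the 21st most abundant gene of the table. It stood at 992, 1006 and 913 FPKM in control and 794, 815 and 899 FPKM in Fbxw11 libraries, with 11125 to 16636 reads behind each value. The groups did not overlap, as for 31.1% of all genes tested, and the libraries numbered 3 lay nearest to each other. Mean B2m was 970 ± 50.4 and 836 ± 55.6 FPKM (SD, n = 3), 13.8% lower in Fbxw11 libraries. The log2 fold change was -0.22 (SE 0.062, 95% interval -0.36 to -0.07), and limma's adjusted p of 0.0843 did not pass.

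The call of B2m depended on the scaling and on the third libraries. It passed on the TPM scale (-0.26, limma adjusted p = 0.0392, 9.73% of all genes called) and over plain read sums (-0.25, adjusted p = 0.0466, 9.84%). It passed with voom on recovered reads (-0.25, adjusted p = 0.00287), without Fbxw11 library 3 (-0.27, adjusted p = 0.0393, 7.35%) and without both libraries numbered 3 (-0.31, adjusted p = 0.0125, 6.44%). The sign was negative under each of 19 alternatives, and the adjusted p ranged from 0.00287 to 0.331 (0.331 without a filter on low values). The 3 tested genes outside the lists whose levels followed B2m most closely over the 6 libraries were Pbrm1, Cdca2 and Zdhhc13, with Pearson correlations of 0.995, 0.993 and 0.993 across these libraries. They share the libraries and their scaling with B2m. Because they were picked as the highest among all tested genes outside the lists, over only 6 libraries, the values are not evidence of shared control.

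Heavy chains were set against the light chain within each library, a ratio that library scaling does not touch. Summed FPKM of the 4 heavy chains was 0.399, 0.404 and 0.435 times B2m in control and 0.507, 0.468 and 0.397 times B2m in Fbxw11 libraries. Fbxw11 libraries 1 and 2 lay above the control range and library 3 below it (means 0.413 ± 0.0193 and 0.458 ± 0.0557, exact permutation test, two-sided, p = 0.4).

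**Figure D3:**
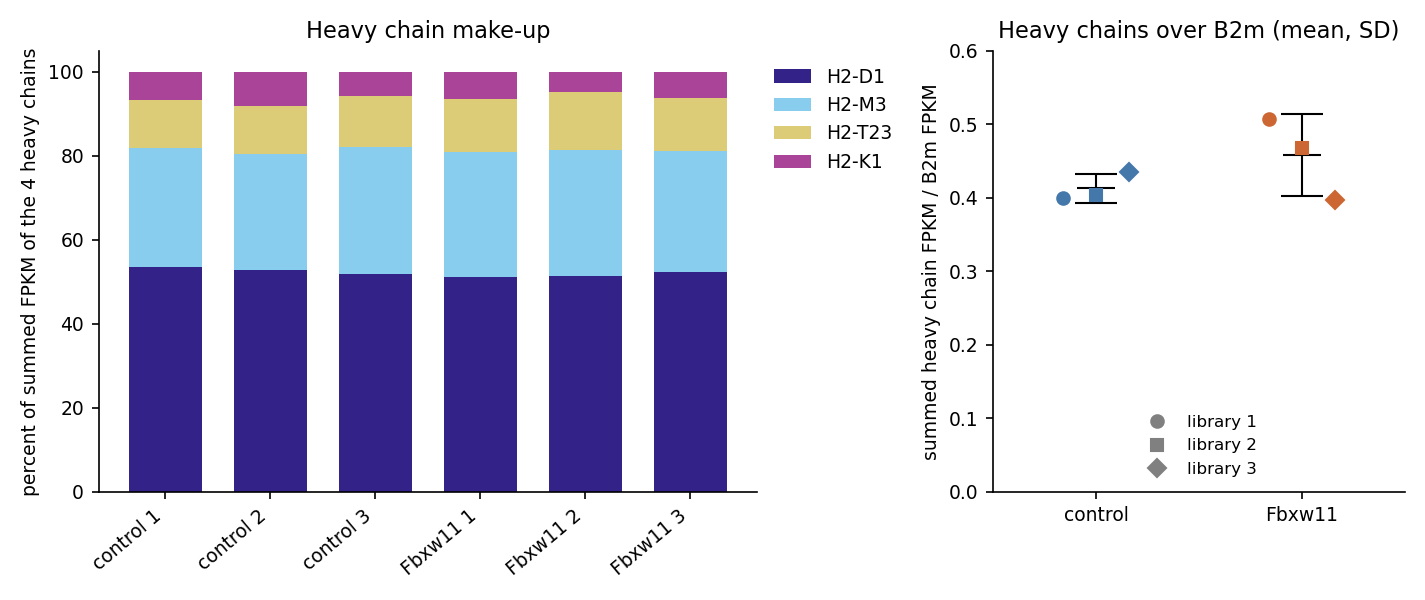
Left, share of each heavy chain in the summed FPKM of the 4 heavy chain members per library. Right, that sum over B2m FPKM with mean and SD (n = 3). H2-D1 makes up between 51.2% and 53.6% in each library, and the ratio of Fbxw11 library 3, 0.397, lies just below the controls.

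Tap1, a subunit of the peptide transporter, stood at 26.5, 26.2 and 30.1 FPKM in control and 32.3, 30.8 and 32.0 FPKM in Fbxw11 libraries. The groups did not overlap, as for 31.1% of all genes tested, and control library 3 lay just below the lowest Fbxw11 library. The mean was 27.6 ± 2.16 and 31.7 ± 0.806 FPKM, 14.7% higher with Fbxw11. On the log2 scale the difference was 0.19 (SE 0.058, 95% interval 0.06 to 0.33, limma adjusted p = 0.0935). It passed without control library 3 (0.25, adjusted p = 0.0246, 6.76% of all genes called) and without both libraries numbered 3 (0.25, adjusted p = 0.0412), and the adjusted p ranged from 0.0246 to 0.254 over 19 alternatives.

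Tap2, its partner in the transporter, stood at 11.9, 12.3 and 13.7 FPKM in control and 14.7, 13.6 and 13.3 FPKM in Fbxw11 libraries. The groups overlapped through control library 3, the highest control in Tap1 and Tap2 alike. The log2 fold change of Tap2 was 0.13 (95% interval -0.02 to 0.27, limma adjusted p = 0.262), and 0.21 without both libraries numbered 3 (adjusted p = 0.0924). Tap1 stood above Tap2 by 2.14 to 2.41 times per length in each library, with means of 2.19 ± 0.0451 and 2.29 ± 0.110 (exact permutation test, two-sided, p = 0.3).

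The neighbours of the transporter genes were measured beside them. Psmb9, an immunoproteasome subunit, overlaps the start of Tap1 by 212 bases in the table, on the other strand, and Psmb8 starts 495 bases after the end of Tap1. Psmb9 stood at 5.50 ± 0.442 and 5.63 ± 0.377 FPKM and Psmb8 at 30.7 ± 0.657 and 29.1 ± 1.59 FPKM (log2 fold changes 0.03 and -0.08, limma adjusted p = 0.840 and 0.362). Whether the counting used strand was not given in the sources used here, and reads in the overlap cannot be assigned to Tap1 or Psmb9. The ratio of Tap1 to Psmb9 was 4.43, 4.91 and 5.84 in control and 5.33, 5.63 and 5.98 in Fbxw11 libraries, and its groups overlapped (exact permutation test, two-sided, p = 0.3).

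Tapbp, or tapasin, which bridges heavy chain and transporter, stood at 73.9, 73.4 and 77.8 FPKM in control and 74.8, 74.5 and 76.6 FPKM in Fbxw11 libraries. Its log2 fold change was 0.01 with a 95% interval from -0.08 to 0.09, the narrowest interval of the 10, and the estimate changed sign on the TPM scale (-0.04) and under other settings. Of its 50-base windows 23.2% also occur in another gene, most in the overlapping model Gm19412.

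Erap1, the aminopeptidase of the endoplasmic reticulum that cuts peptides to the length class I binds, stood at 20.0, 19.0 and 19.1 FPKM in control and 17.2, 18.3 and 18.4 FPKM in Fbxw11 libraries. The groups did not overlap, as for 31.1% of all genes tested, and the mean was 7.13% lower with Fbxw11. The log2 difference was -0.10 (SE 0.041, 95% interval -0.20 to 0.00), with limma adjusted p = 0.191. With voom on recovered reads it passed (-0.14, adjusted p = 0.0409). Erap1 shares 10.7% of its 50-base windows with the neighbouring gene Cast.

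Nlrc5, the class I transactivator, stood at 10.1, 11.1 and 11.4 FPKM in control and 11.5, 11.4 and 11.3 FPKM in Fbxw11 libraries. The Fbxw11 libraries lay within a narrow range that control library 3 shared. The log2 fold change was 0.07 (95% interval -0.05 to 0.18, limma adjusted p = 0.469), with 1415 to 1808 reads behind each value, and 0.10 without both libraries numbered 3 (adjusted p = 0.344). The level of the transactivator differed between groups by less than the spread between the control libraries.

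**Figure D4:**
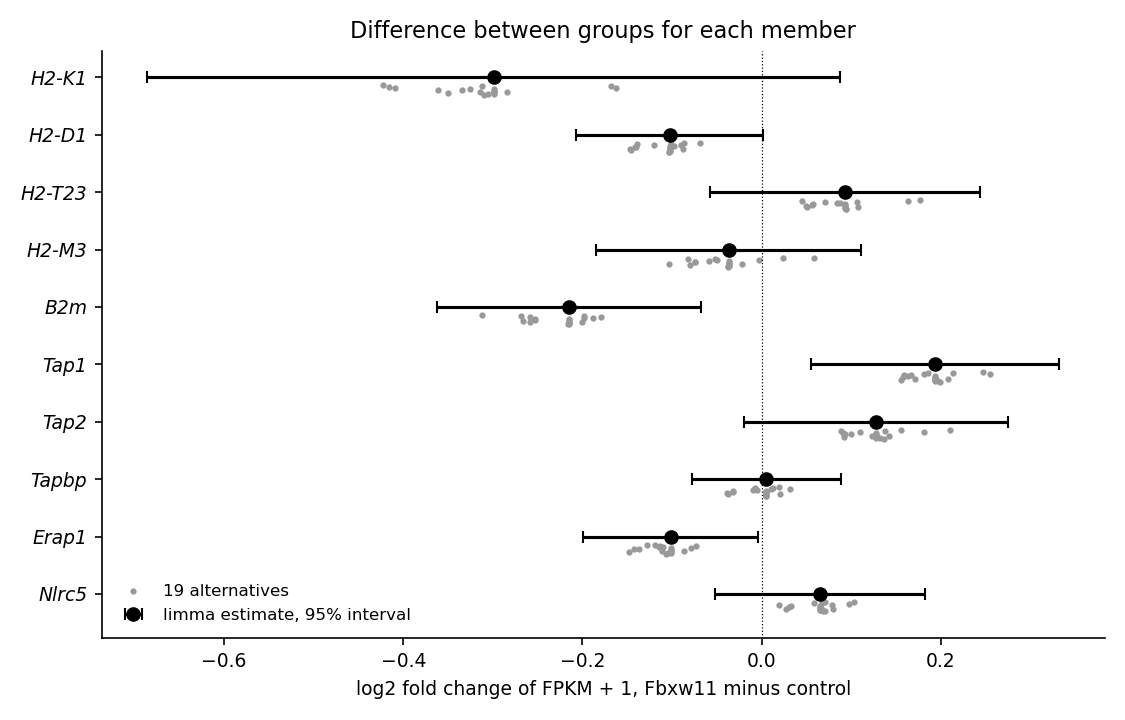
Log2 fold change, Fbxw11 minus control, on the log2(FPKM + 1) scale for each member with its 95% interval from limma, and below it the estimates under 19 alternatives (grey). The interval of H2-K1 is the widest, from -0.69 to 0.09, and those of B2m, Tap1 and Erap1 do not reach 0 before adjustment.

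The other genes of the pathway were taken from lists that cover its neighbours. Of 18 other class I and class I-like genes 8 were tested, and 0 rose and 0 fell by limma. At an unadjusted p under 0.05 there were 3, against 24.6% of all genes tested, and voom on recovered reads called 1, against 14.3%. The median log2 fold change was -0.08, with a range from -0.64 to 0.10. Estimates were negative in 6 and positive in 2. H2-T24, the most abundant, stood at 98.8 ± 2.42 and 106 ± 1.69 FPKM (adjusted p = 0.111) and H2-Q4 at 34.2 ± 1.72 and 33.7 ± 1.97 FPKM (adjusted p = 0.841), neither of which passed. By quantile normalization the estimate of H2-T24 was 0.02 (limma adjusted p = 0.734). H2-T22 had the smallest p of the list, at 15.3 ± 0.397 and 13.4 ± 0.694 FPKM (-0.18, limma adjusted p = 0.0659). Its groups and those of H2-T24 did not overlap, as for 31.1% of all genes tested. H2-T22 lies outside the rule for named genes and was chosen after its values were seen. The estimate of H2-Q4 was near 0 and changed sign without control library 3 or without Fbxw11 library 1.

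Among partners in the endoplasmic reticulum 3 of 11 tested genes rose, where 4.6% of all genes did, and 0 fell (median 0.10 beside 0.00 over all genes). The chaperone Hspa5, which binds unfolded chains, rose by 0.33 on the log2 scale (SE 0.032, limma adjusted p = 0.00279), from 915 ± 5.77 to 1152 ± 24.5 FPKM. The channel subunits Sec61a1 and Sec61b, through which new chains enter the endoplasmic reticulum, rose from 49.7 ± 0.623 to 56.2 ± 0.470 FPKM (0.17) and from 47.5 ± 1.21 to 54.6 ± 0.785 FPKM (0.20). The call of Hspa5 was lost under 1 of 19 alternatives, without a filter on low values (limma adjusted p = 0.0694). After quantile normalization it was near the threshold (adjusted p = 0.0497). The calls of Sec61a1 and Sec61b were each lost under 5 of 19 alternatives, among them the replicate block (adjusted p = 0.0626 and 0.0548). For Sec61b they included the fit without both libraries numbered 3 (adjusted p = 0.061). Hspa5, Sec61a1 and Sec61b serve secreted and membrane proteins in general. Calreticulin (Calr), calnexin (Canx) and Pdia3, chaperones of class I folding and loading, did not pass. Levels were 517 ± 20.8 and 554 ± 8.39 FPKM for Calr, 213 ± 7.62 and 217 ± 5.23 FPKM for Canx and 359 ± 7.58 and 374 ± 10.7 FPKM for Pdia3. Calr, Canx and Pdia3, like Psmb8 and Psmb9, were named outside the rule for named genes and after their values were seen. Without control library 1, Fbxw11 library 1 or Fbxw11 library 2 the list had 1 call.

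Of 13 tested genes of peptide supply (immunoproteasome, proteasome activator, cytosolic peptidases) 0 rose and 0 fell by limma. At an unadjusted p under 0.05 there were 2, against 24.6% of all genes tested, and voom on recovered reads called 1, against 14.3%. The median log2 fold change of the 13 was 0.02. Psme1, a subunit of the same activator as Psme2, had the smallest p of the list, at 42.8 ± 1.63 and 38.3 ± 1.44 FPKM (-0.16, limma adjusted p = 0.0768). It was the only gene of the list whose groups did not overlap, where those of 31.1% of all genes tested did not. It lies outside the rule for named genes and was chosen after its values were seen. The partner subunit Psme2 stood at 66.3 ± 4.75 and 81.7 ± 12.2 FPKM (0.29, adjusted p = 0.180) and passed without Fbxw11 library 3 (0.41, adjusted p = 0.0266) and without both libraries numbered 3 (adjusted p = 0.0455). Psme3, of the nuclear activator, stood at 84.7 ± 3.15 and 87.6 ± 1.62 FPKM (adjusted p = 0.483).

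Of 20 tested regulators of class I 4 rose and 0 fell (median 0.06), where 4.6% of all genes tested rose. Stat2, a subunit of the interferon-activated factor ISGF3, rose by 0.33 on the log2 scale (SE 0.032, limma adjusted p = 0.00274), from 34.9 ± 0.889 to 44.1 ± 0.315 FPKM. Nfkb1, of NF-kB, rose from 23.7 ± 0.296 to 26.9 ± 0.415 FPKM (0.18), the interferon receptor subunit Ifnar2 from 14.5 ± 0.620 to 16.8 ± 0.476 FPKM (0.20) and Irf8, a macrophage transcription factor, from 9.76 ± 0.297 to 11.2 ± 0.437 FPKM (0.19). The calls of Ifnar2 and Irf8 were each lost under 12 of 19 alternatives and that of Nfkb1 under 6, while Stat2 was called under all 19. The list had 1 call without control library 1, control library 2, Fbxw11 library 1 or Fbxw11 library 2, and 2 without Fbxw11 library 3.

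MHC class II was measured beside class I as the other presentation pathway. Of 13 genes 3 were tested, and 0 passed by limma. At an unadjusted p under 0.05 there were 3, where 24.6% of all genes tested were, and voom on recovered reads called 2, where it called 14.3% of all genes. Cd74, the invariant chain, stood at 367 ± 13.6 and 404 ± 16.3 FPKM (adjusted p = 0.116), while the chains it escorts, H2-Aa, H2-Ab1 and H2-Eb1, averaged 0.390, 0.729 and 0.735 FPKM over the 6 libraries. Ctss, the protease that degrades Cd74, stood at 227 ± 8.46 and 207 ± 3.16 FPKM (adjusted p = 0.0803).

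Ligands of NKG2D, class I-related surface proteins that natural killer cells read as signs of stress, were 4 tested genes. Of these 1 fell, against 4.64% of all genes tested, and 0 rose, against 4.6%. Of the 9 listed genes 4 were not found in the table. Ulbp1 was 8.20, 7.11 and 7.94 FPKM in control and 4.56, 5.21 and 4.98 FPKM in Fbxw11 libraries. It fell by 0.56 on the log2 scale (SE 0.067, limma adjusted p = 0.00494) and was called under all 19 alternatives. Raet1d stood at 21.4, 22.4 and 22.1 FPKM in control and 16.8, 19.1 and 14.3 FPKM in Fbxw11 libraries (-0.38, adjusted p = 0.0539), and its close copy Raet1e at 18.6 ± 0.897 and 14.6 ± 1.80 FPKM (-0.33, adjusted p = 0.0642). H60b, the other tested ligand, stood at 4.59 ± 0.651 and 4.92 ± 0.219 FPKM (0.09, limma adjusted p = 0.603), and its groups overlapped. Raet1e and H60b were picked with their values known. The separate values of Raet1d and Raet1e are uncertain because reads of copies can be shared. Raet1d passed under 5 of 19 alternatives, among them without Fbxw11 library 2 (-0.48, adjusted p = 0.0289), where the list had 3 calls. Fewer cells with a transcript and less RNA per cell cannot be told apart in these bulk libraries.

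**Figure D5:**
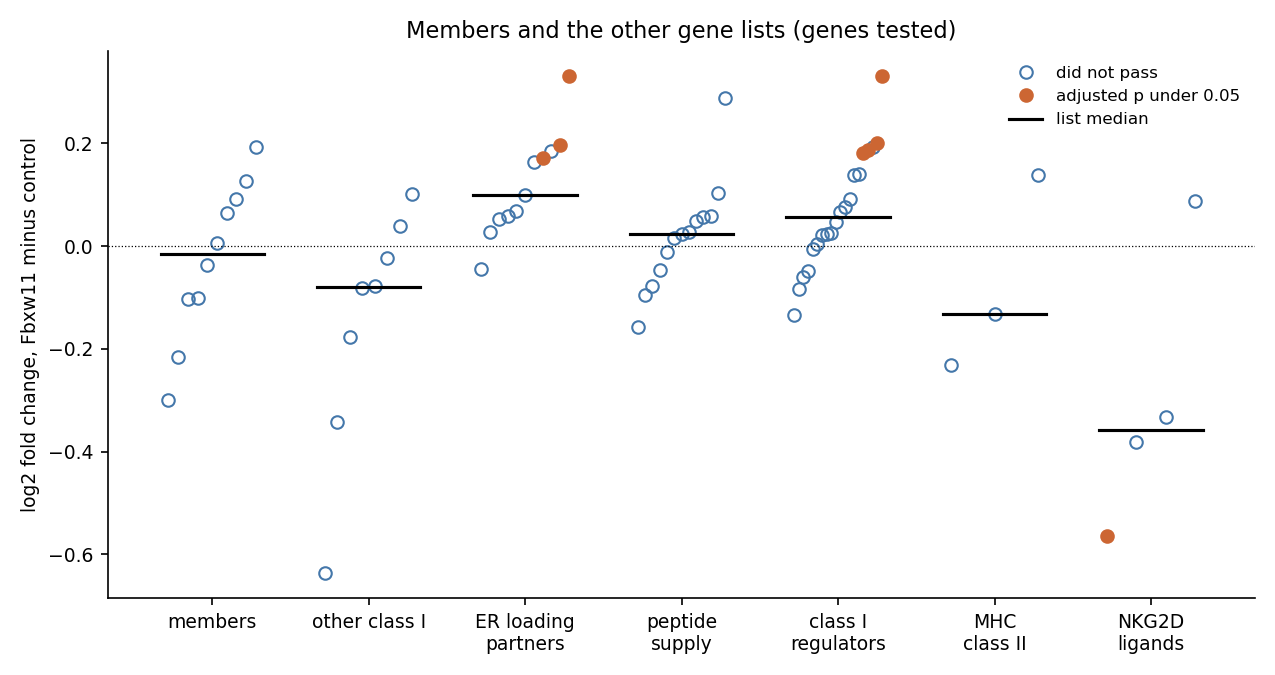
Log2 fold change, Fbxw11 minus control, of each tested gene (points) of the members and of 6 other lists, with list medians (lines). Filled points passed limma at an adjusted p of 0.05: none of the 10 members, 3 endoplasmic reticulum partners, 4 regulators and the ligand gene Ulbp1.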

How the data were processed

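RNA from 6 libraries of sorted RAW264.7 cells was analysed, 3 with the Fbxw11 vector and 3 with the control vector, grouped by their titles. The deposited table holds FPKM, made by the authors, with gene names, lengths and coordinates. The build mm10 is named in the submitters' processing notes, but the table's coordinates do not match it. The aligner, counter, annotation and filters were not given in the sources used here.

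FPKM times the gene length that the authors deposited was a whole multiple of 1 step per library for 100% of values above 0 (within 0.02 reads), which gave reads per gene. The library size behind the authors' FPKM was 1.014 to 1.018 times the sum of reads in control and 0.987 to 0.993 times in Fbxw11 libraries, so FPKM in Fbxw11 libraries is raised against plain sums. Pairs within a group differed beyond counting error (chi-square over its degrees of freedom, 2.34 to 5.43), and each counted as 1 replicate.

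Values were tested as log2(FPKM + 1), for genes whose mean reached 1 FPKM, with limma 3.58.1 in R 4.3.3 (mean-variance trend, no covariate, two-sided). Adjusted p is Benjamini-Hochberg over all 10898 genes tested. A fold change on this scale understates changes of low genes. Alternatives were pseudocount, filter, scaling, voom, the replicate block and leaving out libraries. The procedure was tested on simulated data. Intervals and reads cover no error beyond the spread between libraries and counting. The members and lists were chosen with earlier results of these data known. Named genes are all members and, per list, up to 4 past the threshold, filled up to 2 with the most abundant. For the member with the smallest p the 3 most correlated genes are given.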

Additional observations from a re-analysis of the deposited data

How the results depend on the processing

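Fbxw11 kept its call under all 19 alternatives, and H2-K1, H2-T23, Tap2 and Nlrc5 kept their direction and did not pass under any of 19. Among members, the calls gained with all 6 libraries or without both libraries numbered 3 were H2-D1 by quantile normalization (-0.15) and voom (-0.14), Erap1 by voom (-0.14), B2m on the TPM scale (-0.26), over plain read sums (-0.25), by voom (-0.25) and without both libraries numbered 3 (-0.31), and Tap1 without both libraries numbered 3 (0.25). Tapbp turned its sign on the TPM scale (-0.038), by quantile normalization (-0.039), over plain read sums (-0.032) and by voom (-0.032), H2-M3 without both libraries numbered 3 (0.058), and the peptide supply gene Psme3 by quantile normalization (-0.019). With 1 library left out, B2m passed without Fbxw11 library 3 and Tap1 without control library 3. The cause was not tested.

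The members called, 0 in the reported fit, were 1 on the TPM scale, by quantile normalization and over plain read sums, 3 by voom and 2 without both libraries numbered 3. All genes called, 1007 as reported, were 596 without a filter, 1559 by voom and 621 with the replicate block. Other class I genes had 1 call on the TPM scale, over plain read sums, by voom, with the block and without both libraries numbered 3. Partners in the endoplasmic reticulum had 1 call with the block. Peptide supply had 1 on the TPM scale, by quantile normalization, over plain read sums, by voom and without both libraries numbered 3. Class I regulators had 2 without a filter, on the TPM scale, without a trend and over plain read sums, and 1 with the block and without both libraries numbered 3. MHC class II had 1 on the TPM scale, by quantile normalization and over plain read sums and 2 by voom. NKG2D ligands had 3 with a filter of 5 FPKM, on the TPM scale, over plain read sums and by voom, and 2 with the block.

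With 1 library left out, the log2 fold change ranged from -0.42 to -0.16 for H2-K1, -0.14 to -0.07 for H2-D1, 0.04 to 0.16 for H2-T23, -0.082 to 0.024 for H2-M3, -0.27 to -0.18 for B2m, 0.16 to 0.25 for Tap1, 0.09 to 0.18 for Tap2, -0.010 to 0.031 for Tapbp, -0.12 to -0.07 for Erap1, 0.02 to 0.10 for Nlrc5, 2.87 to 2.88 for Fbxw11 and -0.066 to 0.017 for H2-Q4. Calls ranged from 0 to 1 for members, 409 to 801 for all genes, 0 to 0 for other class I and class II, 1 to 3 for endoplasmic reticulum partners, 0 to 1 for peptide supply, 1 to 3 for regulators and 1 to 3 for NKG2D ligands. The heavy chain to B2m ratio differed by 0.020 to 0.075 between groups.

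The labels number the libraries 1 to 3 in both groups, and equal numbers matched only in part. Deviations from the group means correlated at 0.036, 0.041 and 0.189 for libraries 1, 2 and 3 of equal number. The value for the libraries numbered 3 was the highest of all pairs, and control library 2 also correlated best with Fbxw11 library 2. Control library 1 correlated better with Fbxw11 library 2 (0.148) than with Fbxw11 library 1. Whether equal numbers share a batch was not tested. With the replicate block as a term no member passed (B2m adjusted p = 0.151).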
